A study of Mus musculus with 7 samples.

Results

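The data below concern 10 genes on either side of Elk1, the transcription factor for which Med23 is the known docking subunit of Mediator. They are the ternary complex factors Elk1, Elk3 and Elk4, their DNA-binding partner Srf, the early growth response factors Egr1, Egr2, Egr3 and Egr4, and the Egr cofactors Nab1 and Nab2. The members were given as a list of symbols, and all 10 were found among the 24346 genes of the deposited expression table, and all 10 passed the filter on low values that left 14151 genes for testing. The rule that lists them uses no measured value, but the members were chosen with earlier results of these data known.

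Elk1, Elk3 and Elk4 are ETS-domain proteins that sit on a serum response element together with a dimer of SRF, which binds the CArG box, and they are phosphorylated by ERK when growth factors activate the Ras pathway. Phosphorylated Elk1 contacts Mediator through Med23, and immediate early genes such as Egr1 and Egr2 are then transcribed within minutes. The Egr proteins are zinc finger transcription factors, and Nab1 and Nab2 bind several of them and hold their activity in check. The neurospheres were grown in medium with FGF and EGF, both of which feed this pathway.

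RNA was sequenced from primary hippocampal neurospheres, which are free-floating balls of cells grown out from adult neural stem cells. Each library came from 1 mouse of the C57/BL6 strain at 2 months of age. Of the 7 libraries, 3 came from Med23 CKO mice (Nestin-CreER:Med23 flox/flox), in which tamoxifen removes exons 5 to 7 of Med23 from cells with Nestin-driven Cre. The other 4 came from littermates labelled wild type, which the methods describe as Med23 flox/+ or Med23 flox/flox mice. Mice of both groups were given 200 mg/kg of tamoxifen by gavage on each of 5 days, at 2 months by the labels and at an earlier age, for cultures, by the methods. Nestin-driven Cre is not limited to neural stem cells, and the share of cells that recombined was not measured here. Med23 was lower in every Med23 CKO library, with 9.12 ± 0.934 FPKM (SD, n = 3) against 11.2 ± 1.29 FPKM (SD, n = 4) in control and no overlap between the groups (exact permutation test, two-sided, p = 0.0571). FPKM is the number of sequenced fragments per kilobase of transcript and per unit of mapped fragments in the library, so it can be compared between genes, and for Med23 it counts the exons that remain after recombination too.

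The libraries differed in the summed RNA of cell type markers and of proliferation markers. All 10 markers of neural stem and progenitor cells were present in every library, with a summed level of 1897 to 3875 FPKM in control and 2087 to 3868 FPKM in Med23 CKO. The 11 microglia and macrophage markers summed to 31.8 to 203 FPKM in control, and to 931 FPKM in KO_214, 155 FPKM in KO_218 and 34.5 FPKM in KO_117, with 0 of the 11 listed at 0 in any library. The 6 proliferation markers summed to 316 to 752 FPKM in control, 966 FPKM in KO_117, 545 FPKM in KO_218 and 214.6 FPKM in KO_214. In bulk RNA, fewer cells of a type and less RNA per cell cannot be told apart.

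Promoter sequences of 3 members are shown because they carry the binding letters of SRF or of the Egr factors themselves. They come from RefSeq on GRCm38.p6 and run 5′ to 3′ on the gene's strand from 250 bases before to 50 bases after a transcription start site. Capitals mark CArG boxes, which SRF binds, and copies of the Egr recognition sequence GCGNGGGCG, both searched on both strands. Windows were at hand for 8 of the 10 genes, without Egr1 and Egr3, and Egr2 and Elk4 have several start sites with a window each. Positions are counted from the start site as 0. The Egr2 window lies at chr10:67537619-67537918 on the forward strand, with a CArG box at positions -72 to -63 and the ETS core GGAA on the opposite strand at -81 to -78, side by side as in a serum response element. The Srf window, at chr17:46556113-46556412 on the reverse strand, holds CArG boxes at -82 to -73 and at -62 to -53 and an Egr sequence at -101 to -93. The Nab1 window, at chr1:52500399-52500698 on the reverse strand, holds 3 Egr sequences, at -141 to -133, -109 to -101 and -38 to -30.
Egr2: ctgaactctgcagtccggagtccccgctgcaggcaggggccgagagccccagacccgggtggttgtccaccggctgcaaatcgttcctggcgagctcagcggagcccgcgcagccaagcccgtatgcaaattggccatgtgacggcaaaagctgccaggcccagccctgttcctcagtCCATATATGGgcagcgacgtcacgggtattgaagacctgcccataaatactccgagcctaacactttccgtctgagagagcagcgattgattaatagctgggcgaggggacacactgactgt
Srf: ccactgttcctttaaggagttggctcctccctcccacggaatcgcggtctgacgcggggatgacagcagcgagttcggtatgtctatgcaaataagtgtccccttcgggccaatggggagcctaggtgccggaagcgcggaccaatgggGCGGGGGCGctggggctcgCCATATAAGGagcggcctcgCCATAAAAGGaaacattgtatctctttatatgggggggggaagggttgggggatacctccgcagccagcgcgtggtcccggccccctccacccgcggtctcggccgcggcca
Nab1: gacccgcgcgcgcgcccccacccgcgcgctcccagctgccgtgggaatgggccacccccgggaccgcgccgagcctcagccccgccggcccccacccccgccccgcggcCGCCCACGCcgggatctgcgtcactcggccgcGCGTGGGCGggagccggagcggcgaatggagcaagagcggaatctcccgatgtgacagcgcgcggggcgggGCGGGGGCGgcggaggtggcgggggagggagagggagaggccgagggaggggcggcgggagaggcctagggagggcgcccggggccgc
Of 32817 promoter windows of this length, 1.63% held a CArG box, 0.692% held one with a GGAA outside it and within 20 bases, and 5.56% held an Egr sequence. GGAA on its own was in 96.0% of windows and so says little about any of them. Among the windows of the 8 genes, Egr2 and Srf had a CArG box, and Srf, Nab1, Elk3 and Elk4 had an Egr sequence. The Srf window counts as having a nearby GGAA through a copy that overlaps its second CArG box. The full cyclic AMP response element TGACGTCA, in 1.79% of all windows, was in none of the windows of the 8 genes. A match describes letters in a window and not a bound site.

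Levels are given below as FPKM in the order WT_220, WT_215, WT_213 and WT_116 for control and KO_214, KO_218 and KO_117 for Med23 CKO. Differences were fitted by limma on log2(FPKM + 1) over all 7 libraries and are given as Med23 CKO minus control on that scale, where low genes appear to differ less than they do in FPKM.

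Med23 CKO neurospheres had lower mean levels of all 4 Egr genes and of Nab2, while Elk1, Elk4, Srf and Nab1 had log2 fold changes between -0.21 and -0.02. Elk3 was the 1 member with a higher mean, where 56.2% of all genes tested had a lower one. Of the 10 genes, 2 (Egr1 and Nab2) had an unadjusted limma p under 0.05 and a lower mean, where 0.996% of all genes tested were, and 0 were higher, where 0.502% were. At an adjusted p under 0.05 the limma fit called 0 of the 10 genes, and it called 0% of all genes lower and 0% higher (141 lower and 71 higher at an unadjusted p under 0.05, or 119 and 99 with each library centred on its median). In 0 of the 10 did all Med23 CKO values lie below all control values, against 1.53% of all genes, or above them, against 0.784%. With 3 libraries against 4, the smallest p that an exact permutation test can give is 0.0286.

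**Figure D1:**
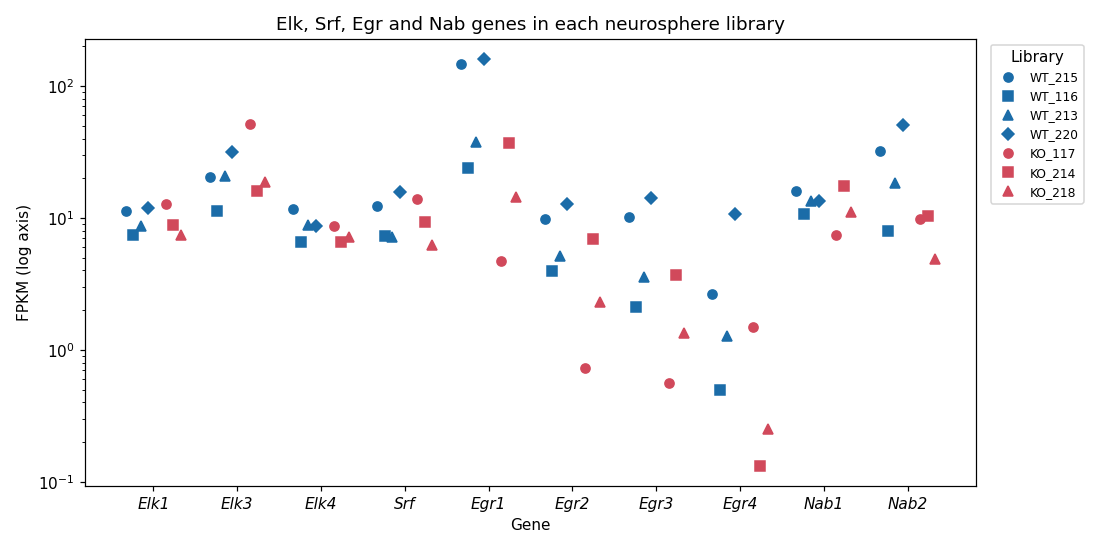
FPKM (log axis) of the 10 genes in each of the 7 libraries, 1 point per library, blue for control and red for Med23 CKO. Egr1 spans from 4.76 FPKM in KO_117 to 159.8 FPKM in WT_220, whereas Elk1 stays between 7.40 and 12.9 FPKM.

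Egr1, the best expressed member in control, codes for the zinc finger factor also called Zif268 and lies on chromosome 18 of GRCm38 from 34861207 to 34864956. It stood at 159.8, 146, 37.9 and 23.7 FPKM in control and at 36.9, 14.5 and 4.76 FPKM in Med23 CKO. Controls WT_220 and WT_215 were far above the rest, WT_213 lay close to KO_214, and KO_218 and KO_117 were below every control. The control mean was 4.91 times the Med23 CKO mean, and the log2 fold change was -2.20 (95% interval -4.21 to -0.20, exact permutation test, two-sided, p = 0.114). Of the 14151 genes tested, 6 had a lower log2 fold change than Egr1.

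Egr2, also called Krox20, is the Egr factor known for Schwann cell myelination and hindbrain patterning. It stood at 12.8, 9.77, 5.11 and 3.94 FPKM in control and at 6.90, 2.32 and 0.735 FPKM in Med23 CKO. KO_214 lay between the higher and the lower pair of controls, and the other 2 Med23 CKO libraries lay below all controls. The log2 fold change was -1.20 (95% interval -2.53 to 0.14, exact permutation test, two-sided, p = 0.143). Its promoter, printed above, holds a CArG box, and so does the window of another Egr2 start site at chr10:67537316-67537615. The Egr2 window at chr10:67535249-67535548 and the Egr4 window hold none.

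Egr3, an activity-dependent factor with functions that overlap those of Egr1, stood at 14.1, 10.1, 3.55 and 2.12 FPKM in control and at 3.72, 1.35 and 0.559 FPKM in Med23 CKO. The order of the libraries was the same as for Egr2, with KO_214 just above WT_213. Its control mean was 3.99 times the Med23 CKO mean, with a log2 fold change of -1.44 (95% interval -2.90 to 0.03, exact permutation test, two-sided, p = 0.171). Egr3 lies on chromosome 14 of GRCm38 from 70077317 to 70082613.

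Egr4 was the lowest of the 10 genes in both groups, at 10.8, 2.63, 1.27 and 0.496 FPKM in control and at 0.133, 0.251 and 1.49 FPKM in Med23 CKO. WT_220 stood alone at the top, and KO_117, which was lowest for the other Egr genes, was the highest Med23 CKO library. The log2 fold change was -1.19 (95% interval -2.80 to 0.42, exact permutation test, two-sided, p = 0.2). At this level the pseudocount matters, and with 0.1 in place of 1 the log2 fold change was -2.13.

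Nab2 is a corepressor that is itself induced by Egr factors and limits them. It stood at 50.8, 31.9, 18.6 and 7.92 FPKM in control and at 10.3, 4.92 and 9.77 FPKM in Med23 CKO. Of the controls, 3 were above all Med23 CKO libraries, and WT_116 lay among them. The control mean was 3.27 times the Med23 CKO mean, with a log2 fold change of -1.38 (95% interval -2.74 to -0.02, exact permutation test, two-sided, p = 0.143). Nab2 shares exonic bases on the opposite strand with Stat6 (40 bases), with Nemp1 (151 bases) and with the annotated transcript Gm16229 (1050 bases, 35.7% of the exonic bases of Nab2 in GENCODE M21). The library kit does not mark strand, so reads from those bases cannot be told apart. Stat6, a signal transducer of interleukin signaling, had a higher mean in Med23 CKO, at 1.94 to 6.12 FPKM in control and at 21.0, 5.67 and 1.82 FPKM in Med23 CKO.

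Nab1, the constitutive relative of Nab2, stood at 13.3, 15.9, 13.4 and 10.8 FPKM in control and at 17.5, 11.2 and 7.40 FPKM in Med23 CKO. The Med23 CKO values enclosed those of the controls on both sides. Its log2 fold change was -0.20 (95% interval -0.88 to 0.47, exact permutation test, two-sided, p = 0.571). In FPKM, the ratio of Nab2 to Nab1 was 0.733 to 3.81 in control and 0.441 to 1.32 in Med23 CKO.

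Srf codes for the serum response factor, the partner of the Elk proteins on DNA. It stood at 15.8, 12.2, 7.12 and 7.25 FPKM in control and at 9.31, 6.21 and 13.9 FPKM in Med23 CKO. The groups overlapped over most of their range, with KO_117 second only to WT_220. The log2 fold change was -0.10 (95% interval -0.93 to 0.74, exact permutation test, two-sided, p = 0.829), an interval that takes in changes of either sign.

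Elk1, the factor that Med23 binds, stood at 11.9, 11.2, 8.74 and 7.40 FPKM in control and at 8.89, 7.40 and 12.9 FPKM in Med23 CKO. The highest library was KO_117, and WT_116 and KO_218 were level at the low end. Its log2 fold change was -0.02 (95% interval -0.61 to 0.57, exact permutation test, two-sided, p = 0.971), and the sign turned to 0.0015 when each library was centred on its median. Elk1 lies on chromosome X of GRCm38 from 20933395 to 20950608 on the reverse strand, and 76 of its exonic bases also belong to Uxt.

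Elk3, also called Net, can act as a repressor until it is phosphorylated. It stood at 31.4, 20.5, 20.7 and 11.3 FPKM in control and at 15.9, 18.7 and 51.3 FPKM in Med23 CKO. KO_117 alone was above all controls, and the other 2 Med23 CKO libraries lay inside the control range. The log2 fold change was 0.32 (95% interval -0.77 to 1.41, exact permutation test, two-sided, p = 0.629), and without KO_117 it was -0.18. Elk3 shares 316 exonic bases (6.95% of its own) with Cdk17 on the opposite strand, and reads from them cannot be told apart. Cdk17 stood at 31.5 to 45.1 FPKM in control and at 23.7 to 37.7 FPKM in Med23 CKO. Elk4, also called Sap1, stood at 8.72, 11.7, 8.91 and 6.53 FPKM in control and at 6.62, 7.15 and 8.72 FPKM in Med23 CKO. The fitted log2 fold change was -0.21 (95% interval -0.74 to 0.32, exact permutation test, two-sided, p = 0.371), and its range over all libraries was 1.79-fold.

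**Figure D2:**
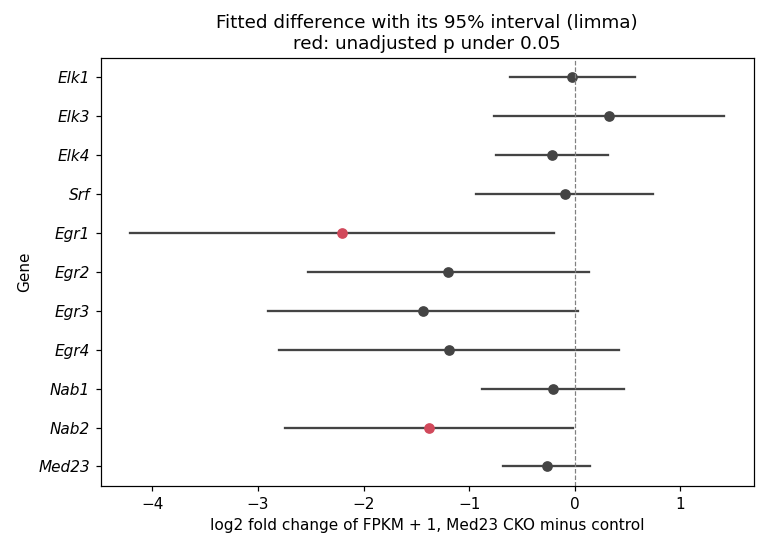
Fitted log2 fold change of FPKM + 1, Med23 CKO minus control, with its 95% interval from limma, for the 10 genes and Med23. The estimates of the 4 Egr genes and Nab2 lie between -2.20 and -1.19, and those of the other 5 members between -0.21 and 0.32; red points had an unadjusted p under 0.05 (Egr1 and Nab2).

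In control, the mean levels in FPKM were in the order Egr1 (92.0), Nab2 (27.3), Elk3 (21.0), Nab1 (13.4), Srf (10.6), Elk1 (9.82), Elk4 (8.96), Egr2 (7.91), Egr3 (7.48) and Egr4 (3.79). Every pair of neighbours in this order had overlapping ranges over the 4 controls, although Egr1 was above Nab2, Elk3 above Nab1 and Egr3 above Egr4 in 4 of 4 libraries. In Med23 CKO, Elk3 (28.7 FPKM) came first and Egr1 (18.7 FPKM) second, and Nab2 moved from second place to sixth with 8.35 FPKM.

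The Egr genes and Nab2 varied more between control mice than the other members, with Elk3 close behind Egr2. Within control alone, the highest value was 6.73 times the lowest for Egr1, 6.66 times for Egr3, 3.25 times for Egr2, 21.7 times for Egr4 and 6.41 times for Nab2. The same ratio was 1.61 for Elk1, 1.79 for Elk4, 1.47 for Nab1, 2.22 for Srf and 2.78 for Elk3. Within Med23 CKO it was 6.66 to 11.2 for the Egr genes. For Nab2 it was 2.10 there, below Elk3 (3.22), Nab1 (2.36) and Srf (2.23). Among all genes tested, the spread of Egr1 within groups (SD 1.36 in log2(FPKM + 1), median of all genes 0.38) was at percentile 97.1, that of Egr4 at 93.4, of Egr3 at 91.4, of Nab2 at 89.4 and of Egr2 at 88.4. Elk3 followed at percentile 82.0, Srf at 67.8, Nab1 at 52.9, Elk1 at 41.1 and Elk4 at 30.3, and the order was not tested.

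Part of this spread was shared. Egr1, Egr2, Egr3, Egr4, Nab2 and Elk1 ranked the 4 controls in the same order, from WT_220 and WT_215 down to WT_116. This order was not particular to the members: Olig1, Olig2, Jun, Myc and Mcm2 had it too, whereas Fos and Arc did not. Its share over all genes was not computed. In Med23 CKO, Egr2, Egr3 and Nab1 kept the order of Egr1, and Egr4, Nab2 and Elk1 did not. Over the 7 libraries, Egr1 and Egr3 had a Pearson r of 0.99 in log2(FPKM + 1) and a Spearman rho of 0.96, and Egr1 and Egr2 had an r of 0.98 and a rho of 0.96 (exact permutation of pairings, two-sided, p = 0.000397 for both r and p = 0.00278 for both rho, adjusted over 9 relations 0.00179 and 0.0125). Without KO_117 and WT_220, the 2 libraries farthest from the median of Egr1, these r were 0.997 and 0.933. Exact permutation within groups cannot give a p under 0.00694 with these libraries. Within groups, as deviations from the group means, these r were 0.98 and 0.96 (exact permutation within groups, p = 0.00694 and p = 0.0139, adjusted p = 0.0625 for both). Accordingly the ratio of Egr1 to Egr3 in FPKM stayed within 8.502 to 14.48 over all libraries, whereas Egr1 itself spanned 33.6-fold. The ratio of Egr1 to Egr2 was 5.35 to 15.0.

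Nab2 followed Egr1 less closely, with an r of 0.83 and a rho of 0.89 (exact permutation p = 0.019 and p = 0.0123, adjusted 0.0571 and 0.0369), an r of 0.94 without the 2 farthest libraries, and an r of 0.69 within groups (exact permutation p = 0.118). Nab1 had an r of 0.77 and a rho of 0.64 with Egr1 (exact permutation p = 0.0413 and p = 0.139, adjusted 0.0929 and 0.313). For Egr4, r was 0.62 and rho 0.54 (exact permutation p = 0.136 and p = 0.236, adjusted 0.245 and 0.354). Nab1, Nab2 and Egr4 therefore did not pass the adjusted threshold for r.

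Egr1 had an r of 0.33 with Srf, 0.19 with Elk1, 0.46 with Elk4 and -0.22 with Elk3 over the 7 libraries, and rho was 0.36, 0.18, 0.57 and 0.11 (exact permutation p between 0.2 and 0.84 for all 8 values, adjusted between 0.354 and 0.84). Without the 2 farthest libraries, r was 0.93 for Srf, 0.97 for Elk1, 0.85 for Elk4 and 0.41 for Elk3. For Srf and Elk1 these values turned on KO_117 and WT_220. Without KO_117, r was 0.95 for Srf and 0.98 for Elk1 (exact permutation, adjusted p = 0.01 for both), and without WT_220 r was -0.0039 for Srf and -0.06 for Elk1. For Elk3, r was 0.68 without KO_117, and for Elk4 it was 0.76 without KO_117 and 0.11 without WT_215. KO_117 had the lowest Egr1, Egr2 and Egr3 of all libraries together with the highest Elk1 and Elk3 and the second highest Srf. In FPKM, Egr1 was 3.27 to 11.98 times Srf in control, 3.97 times in KO_214, 2.33 times in KO_218 and 0.343 times in KO_117. KO_117 also had the highest summed proliferation markers, at 966 FPKM against 316 to 752 FPKM in control. Its microglia markers summed to 34.5 FPKM, within the control range of 31.8 to 203 FPKM. The part of cell makeup and proliferation in these relations was not tested.

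**Figure D3:**
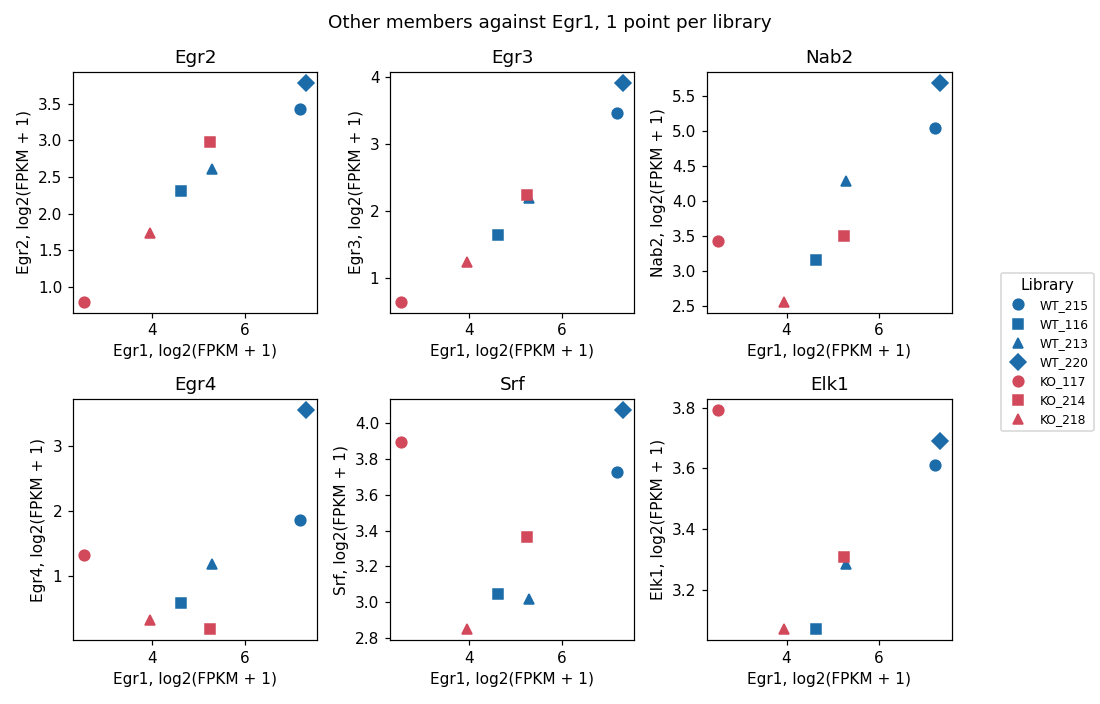
Log2(FPKM + 1) of Egr2, Egr3, Nab2, Egr4, Srf and Elk1 against that of Egr1, 1 point per library, blue for control and red for Med23 CKO. The points of Egr2 and Egr3 lie along a line, and in the panels of Srf and Elk1 KO_117 lies at the upper left, away from the other 6 libraries.

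The genes whose pattern over the 7 libraries was most like that of a member were named by the highest Pearson r of log2(FPKM + 1), as a description. For Egr1 they were Egr3 (0.99), Egr2 (0.98) and Nrg1 (0.97), which codes for neuregulin-1, a ligand of ErbB receptors. For Egr3, Plekha4 (0.99), Egr1 (0.99) and Cpne2 (0.97) came first, and for Egr2, Egr1 (0.98), Car11 (0.97) and Traf5 (0.96). For Nab2 they were Znrf2 (0.99), Rasl11a (0.98) and 4930429B21Rik (0.98), and for Egr4 Kcnj9 (0.99), Ramp1 (0.99) and Npw (0.98). Srf was most like Nrp (0.99), Zyx (0.99) and Dedd (0.99). Zyx codes for the focal adhesion protein zyxin, a known SRF target, and stood at 57.1, 41.1, 17.4 and 15.6 FPKM in control and at 26.8, 11.7 and 51.0 FPKM in Med23 CKO. Elk1 was most like Irak1, Dennd1a and Cluh (0.999, 0.997 and 0.997), Elk3 like Impa2 (0.99), Sall1 (0.99) and Eef2k (0.99), Elk4 like Tnrc6b (0.97), Prtg (0.97) and 3110070M22Rik (0.96), and Nab1 like Zbtb20 (0.98), Gbp3 (0.97) and Pde3a (0.96). These r are the highest among 14151 genes over 7 libraries and carry no test.

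The pathway around the members was read from lists written with earlier results of these data known. Each is given beside all genes tested, whose median log2 fold change was -0.03 and of which 56.2% had a lower mean in Med23 CKO. Of 19 kinases and adaptors between growth factor receptors and the Elk factors, 8 had a lower and 11 a higher mean in Med23 CKO, with a median of 0.04. In this list 1 gene, Rps6ka2, a ribosomal S6 kinase activated by ERK, was higher at an unadjusted p under 0.05. It stood at 6.49, 8.08, 7.72 and 5.85 FPKM in control and at 13.1, 8.13 and 14.7 FPKM in Med23 CKO, so that all Med23 CKO values were above all controls, by little in KO_218 (log2 fold change 0.66, exact permutation test, two-sided, p = 0.0286). The unadjusted limma p of every listed kinase was 0.05 or more without WT_116, WT_220, KO_117 or KO_214 in turn.

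Of 6 tested SRF coactivators and cofactors, 5 had a lower mean, 0 passed an unadjusted p of 0.05 and the median was -0.12. Mkl2, a myocardin-related coactivator of SRF, stood at 9.06, 9.38, 10.2 and 8.68 FPKM in control and at 9.09, 6.07 and 3.50 FPKM in Med23 CKO, with KO_214 inside the control range (log2 fold change -0.59, exact permutation test, two-sided, p = 0.0857). Cited2 and Crebbp, the next by p, had log2 fold changes of 0.32 and -0.20. The 16 SRF targets of the actin cytoskeleton had a median of 0.23, with 5 lower and 11 higher and 0 at an unadjusted p under 0.05. That median was -0.48 without KO_214 and -0.27 with array weights. Tpm4, a tropomyosin, stood at 102 FPKM in KO_218, 166 FPKM in KO_117 and 222 FPKM in KO_214, against 79.0 to 119 FPKM in control. Flna and Vcl, for the actin-linked proteins filamin A and vinculin, were also highest in KO_214, at 118 and 32.0 FPKM, against at most 45.7 and 16.1 FPKM in control. Mural cell and fibroblast markers, cells rich in such transcripts, summed to 129 FPKM in KO_214 and to 3.19 to 27.5 FPKM in the other libraries, and their part in these values was not tested.

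Of 32 other immediate early genes, 22 had a lower and 10 a higher mean in Med23 CKO, with a median of -0.20, and 1 was lower at an unadjusted p under 0.05, Nr4a1. Among all genes tested, 56.2% had a lower mean. Nr4a1, an orphan nuclear receptor, stood at 20.9, 24.4, 10.5 and 9.60 FPKM in control and at 8.35, 3.28 and 6.98 FPKM in Med23 CKO, with the same division of the controls into a high and a low pair as Egr1. Without KO_214, 9 genes of the list had an unadjusted p under 0.05, where 206 genes of all 13947 tested were lower and 78 higher. With array weights 11 did, where 887 of all 14151 genes were lower and 193 higher.

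Of 9 tested genes that have been described as Egr targets, 3 had a lower and 6 a higher mean, with a median of 0.09. The 1 gene at an unadjusted p under 0.05 was Pmp22, a peripheral myelin protein, which was higher in Med23 CKO, at 143, 75.4 and 68.2 FPKM against 40.1, 53.2, 41.8 and 57.4 FPKM in control (log2 fold change 0.91, exact permutation test, two-sided, p = 0.0286). Arc, a synaptic immediate early gene, stood at 33.3, 24.0, 27.8 and 47.2 FPKM in control and at 40.9, 23.2 and 5.17 FPKM in Med23 CKO, and its highest library, WT_116, was the control lowest in Egr1. Ngfr had a log2 fold change of 0.27.

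The fold changes of the Egr genes and Nab2 kept their sign with each library left out, and the size turned on single mice. Egr1 had a log2 fold change of -1.51 without KO_117, which has the lowest Egr1, and -2.87 without KO_214, the library with the most microglia markers. Without WT_220 or WT_215 it was -1.80 or -1.84, and in these cases and without KO_117 limma no longer gave an unadjusted p under 0.05. The call was also lost without KO_218, although the log2 fold change of -2.23 was then as large as with all libraries. Without WT_116 all 4 Egr genes and Nab2 had an unadjusted p under 0.05, 5 members in all, where 201 of all 14110 genes tested were lower. Without WT_215, WT_220, KO_117 or KO_218 in turn 0 members did, where 78, 74, 410 and 71 of all genes were lower. Without KO_214 there were 3, Egr1, Egr2 and Egr3, beside 206 of all genes lower, and without WT_213 there was 1, Egr1, beside 99 of all genes.

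**Figure D4:**
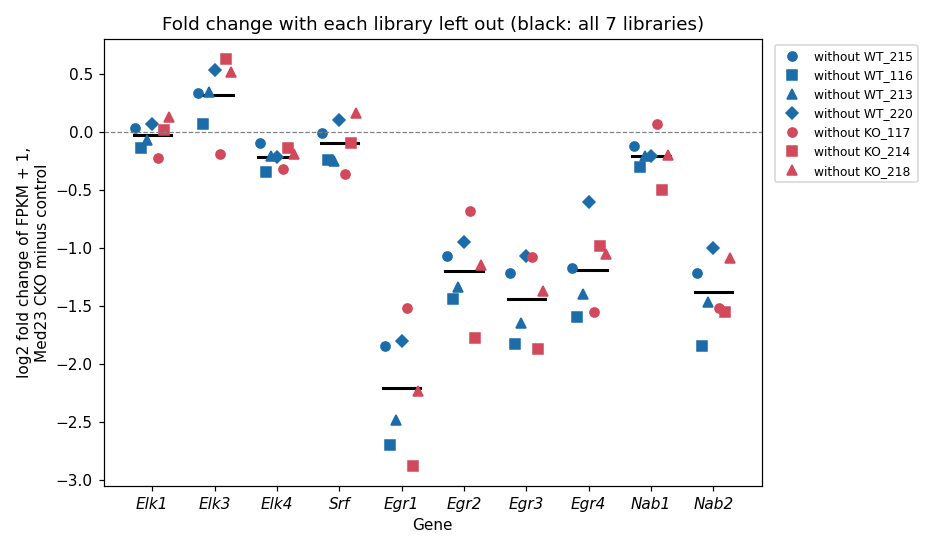
Log2 fold change of FPKM + 1, Med23 CKO minus control, of the 10 genes with all 7 libraries (black line) and after leaving out 1 library at a time (points). The points of Egr1 run from -2.87 to -1.51, those of Egr2 from -1.77 to -0.68, and those of Elk1, Elk3, Srf and Nab1 fall on both sides of 0.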

How the data were processed

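Per the labels and the methods, libraries were made with a kit that does not mark strand, adapters were removed with cutadapt, and reads were aligned to mm10 with Tophat. The authors deposited FPKM per gene and library from Cuffdiff, which were used here as they stand. The deposited group means, fold changes, p-values and q-values of the authors' comparison were not used. The number of libraries limits the precision, since depth is unknown: ratios of low FPKM fell on no steps of whole fragments (fullest bin of 0.05 log2, at most 5.37% of low genes in 21 pairs of libraries). Summed FPKM was 447009 to 547029 per library, and 0 further sample columns were found.

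Genes whose FPKM averaged 0.5 or more over the 7 libraries were analysed as log2(FPKM + 1) with limma 3.58.1 in R 4.3.3 (lmFit, eBayes with trend, no covariate, two-sided, Benjamini-Hochberg over 14151 genes) and checked on simulated data. Exact permutation over the 35 ways to divide 7 libraries into 4 and 3 used R 4.3.3, and that of pairings for correlations used Python 3.11.15 and numpy 2.4.6. Each library is 1 mouse. The members and lists were chosen with earlier results of these data known. Named genes are the members, Med23, genes of each list with an unadjusted p under 0.05 or, where a pathway list had none, those with the 3 smallest p (marker lists without one are given as sums), overlapping genes, and the 3 genes nearest to each member. Fos, Npas4, Arc, Ngfr, Olig1, Olig2, Jun, Myc and Mcm2 were chosen from the lists after their values were seen. Alternatives were a pseudocount of 0.1, no filter, a minimum average FPKM of 1, quantile normalization, median centring, limma without trend, robust (statmod 1.5.0) or with array weights, and each library left out. Gene positions are from RefSeq on GRCm38.p6 and exon overlaps from GENCODE M21, both the mm10 assembly.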

Additional observations from a re-analysis of the deposited data

How the results depend on the processing

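Of 150 fold changes of members under the alternatives, 121 kept their sign and their side of an unadjusted p of 0.05, 11 lost the call, 9 gained it and 9 changed sign. Sign changes were those of Elk1 (0.0015 with median centring), and, with libraries left out, of Elk1 (-0.23 to 0.14), Elk3 (-0.18 to 0.63), Srf (-0.36 to 0.16) and Nab1 (-0.50 to 0.074). The count of members lower at an unadjusted p under 0.05, 2 as reported, was 1 (Egr1) without a filter and 5 with array weights, whose estimation stopped before its tolerance was reached, and 0 to 5 with libraries left out. Array weights gave 887 genes lower and 193 higher of all genes tested, and no filter gave 140 higher. With libraries left out, 71 to 410 genes were lower, 44 to 362 higher and 0 to 1 passed an adjusted p of 0.05 from limma. With array weights, list medians moved beyond the spread between libraries for the kinases (-0.10) and the SRF cofactors (-0.45). Without KO_214 the median of the SRF targets did so too (-0.48), and without KO_117 it was 0.60, within that spread. As deviations from the group means, r of Egr1 with Egr2 (0.96) and Egr3 (0.98) missed the adjusted threshold. Exact permutation within groups cannot give a p under 0.00694, the value of Egr3. Adjusted over 9 relations, a single relation at that p gives 0.0625 and cannot pass by itself. The miss therefore does not show a weaker relation. With libraries left out, r with Egr1 was -0.065 to 0.98 for Elk1, -0.52 to 0.68 for Elk3, 0.11 to 0.76 for Elk4, -0.0039 to 0.95 for Srf, 0.34 to 0.86 for Egr4, 0.52 to 0.91 for Nab1 and 0.75 to 0.96 for Nab2. Where not given by the alternative's construction, the cause was not tested. The controls are described as littermates, but the litter of each library is not given, so no analysis paired by litter was possible.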

Other observations

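Other ETS factors, which share the DNA-binding domain of the Elk proteins, gave 15 tested genes with 9 lower and 6 higher means, 0 at an unadjusted p under 0.05 and a median log2 fold change of -0.10. Of all genes tested, 56.2% had a lower mean. Etv1, an ETS factor downstream of FGF signaling, stood at 27.3 to 33.8 FPKM in control and at 24.0, 26.8 and 23.8 FPKM in KO_214, KO_218 and KO_117, all below every control (log2 fold change -0.24, exact permutation test, two-sided, p = 0.0571). Elf4 stood at 3.34 FPKM in KO_214 and at 0.258 to 0.785 FPKM in the other libraries, and Elf2 had a log2 fold change of 0.15.

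Among the immediate early genes outside the family, Fos, a subunit of AP-1, stood at 21.8 to 27.6 FPKM in control, at 25.0 FPKM in KO_214, 12.2 FPKM in KO_218 and 5.13 FPKM in KO_117. It was lowest in the library lowest in Egr1, yet its controls were level where those of Egr1 were not: 1 of 3 Med23 CKO values lay inside the control range. Npas4, an activity-dependent factor of neurons, was low in all libraries, at 0.967 to 1.52 FPKM in control and 0.279 to 0.932 FPKM in Med23 CKO, without overlap (log2 fold change -0.45, exact permutation test, two-sided, p = 0.0286).

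Other cell type markers moved with the libraries too, and their part in the results was not tested. The 8 endothelial markers summed to 7.68 to 61.1 FPKM in control and to 105, 33.4 and 6.28 FPKM in KO_214, KO_218 and KO_117, the 7 oligodendrocyte lineage markers to 1568 to 2790 FPKM in control and 1268 to 2169 FPKM in Med23 CKO, the 5 astrocyte markers to 163 to 232 FPKM and 161 to 282 FPKM, and the 7 neuron markers to 42.1 to 74.8 FPKM and 45.9 to 50.6 FPKM. Within the neuron list, Gad1, which codes for an enzyme of GABA synthesis and was the 1 gene of any marker list with an unadjusted p under 0.05, stood at 11.1, 11.6, 12.2 and 8.92 FPKM in WT_220, WT_215, WT_213 and WT_116. It was below every control in KO_214, KO_218 and KO_117, at 2.21, 4.42 and 5.24 FPKM (log2 fold change -1.32, exact permutation test, two-sided, p = 0.0286). Dixon's criterion was applied to 43 sets of 4 control values. These were the members, Med23, the 3 genes with the smallest p of each pathway list, and the summed lists. In 0 of them was a library set apart from the other 3. The criterion cannot flag controls that divide into a high and a low pair, as those of Egr1 did.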
